A study of Homo sapiens with 60 samples.

Results

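The transcriptional response to arsenic after 6 h was taken from the 3 libraries of arsenic-treated 1321N1 cells and the 3 libraries of non-treated cells collected at the same time, which were chosen by their titles out of 60 libraries in the series. 1321N1 is an established human cell line derived from a brain astrocytoma. The series followed arsenic, cadmium, and mercury over 5 time points with 3 libraries per metal and time point, at doses that the study chose for a like degree of toxicity, and the comparison described here asks which transcripts arsenic had changed by 6 h. The treated cells received 2.55 µM arsenic, given as sodium metaarsenite, in full medium, and the non-treated cells were kept in the same medium without metal for the same 6 h. RNA was sequenced from the 3′ end, so that each transcript gives reads near its end and the count does not grow with gene length. The labels describe the 3 libraries of a group as technical replicates, so the p-values cover the spread between these libraries and may not cover that between independent cultures. In bulk RNA, fewer cells with a transcript and less of it per cell cannot be told apart.

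Arsenite binds pairs of neighbouring thiols in proteins and also binds glutathione, and cells answer with several transcriptional programs. NRF2, a factor kept low by the thiol-rich protein KEAP1, drives genes for glutathione synthesis, heme breakdown, and iron storage. HSF1 drives chaperone genes when proteins misfold. ATF4, whose translation rises when the initiation factor eIF2α is phosphorylated, drives genes for amino acid transport and synthesis, and MTF1 senses zinc and drives metallothioneins and the zinc exporter SLC30A1.

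Levels are given as CPM, counts scaled to a common library size after TMM normalization. Total counts were 2439814, 2675581, and 3068794 in the non-treated libraries and 3301764, 3660738, and 3372014 in the arsenic libraries, so that every arsenic library was deeper than every non-treated library. The part of this gap in the results was not tested beyond the normalization to library size. Mitochondrially encoded transcripts took 5.36% to 5.55% of the counts in non-treated cells and 3.83% to 6.19% with arsenic, and 15359 to 15849 genes had at least 1 count per library. Of the 14 astrocyte markers examined, VIM (3725 to 5243 CPM), CD44 (376 to 405 CPM), SOX9 (41.9 to 68.6 CPM), and GJA1 (12.2 to 20.4 CPM) were present in all 6 libraries, whereas GFAP, S100B, ALDH1L1, AQP4, and SLC1A2 were at 0 in all 6. These 5 are defining markers of mature astrocytes, but, as other genes in the table show, a listed 0 alone does not show that a gene was silent. Oligodendrocyte markers were at 0 for 7 of 7 genes and microglial markers for 5 of 7, with a summed level of the latter of at most 1.07 CPM. The summed level of the astrocyte markers was 4192 to 5765 CPM in non-treated cells and 4340 to 5007 CPM with arsenic, and 0 of the 7 tested passed the test. VIM alone made up most of this sum, and SLC1A3 and ALDOC reached at most 0.96 and 0.90 CPM. The neuronal markers RBFOX3 and SNAP25 were at 0, and the summed level of the 7 neuronal markers was 17.9 to 24.1 CPM in non-treated cells and 22.1 to 25.1 CPM with arsenic. Most of it came from GAD1 (6.94 to 14.2 CPM) and SYT1 (5.83 to 12.7 CPM), whose levels come close to that of GJA1. Of the 8 endothelial or epithelial markers, 4 were at 0, and KRT18 lay between 41.3 and 59.8 CPM.

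Before the values, the sequence upstream of 4 responsive genes is shown, since each carries the letters that textbooks give for the factor named for its group. These are the members with the largest rise, among those with an entry in the promoter table, of the metallothionein, NRF2, heat-shock, and ATF4 lists. HMOX1, the most changed gene, had no entry. The sequences come from RefSeq on GRCh38.p14 and run 5′ to 3′ on the strand of the gene, with the matched letters in capitals. Both strands were searched, and the letters of the antioxidant response element and of the AP-1 site can overlap. Upstream of MT1X (chr16:56682220-56682469, plus strand), 4 matches to the metal response element, written TGCACNC or TGCGCNC, begin 150, 122, 78, and 53 bases before the gene. The stretch also holds 1 match to the core of the antioxidant response element.
MT1X: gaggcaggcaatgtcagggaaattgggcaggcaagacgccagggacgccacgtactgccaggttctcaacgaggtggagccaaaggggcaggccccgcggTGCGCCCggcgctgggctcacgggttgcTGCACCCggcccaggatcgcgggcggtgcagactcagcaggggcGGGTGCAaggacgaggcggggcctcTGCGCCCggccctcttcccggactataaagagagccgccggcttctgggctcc
Upstream of GCLM (chr1:93909431-93909680, minus strand), 1 match to the antioxidant response element core, written TGACNNNGC, begins 34 bases before the RefSeq start. Of the 250 bases shown, the 26 nearest to that start lie inside an annotated exon. The stretch also holds 1 match to the metal response element.
GCLM: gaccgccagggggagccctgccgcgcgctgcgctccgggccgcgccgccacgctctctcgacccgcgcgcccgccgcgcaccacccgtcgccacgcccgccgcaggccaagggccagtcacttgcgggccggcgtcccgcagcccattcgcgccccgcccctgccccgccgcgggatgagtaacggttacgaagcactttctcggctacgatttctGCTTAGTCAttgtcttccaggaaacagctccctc
Upstream of HSPA6 (chr1:161524290-161524539, plus strand), 1 heat-shock element, 3 alternating GAA and TTC units set apart by 2 bases each, begins 74 bases before the gene, and the stretch also holds 2 matches to the AP-1 letters TGAGTCA and 1 to the antioxidant core.
HSPA6: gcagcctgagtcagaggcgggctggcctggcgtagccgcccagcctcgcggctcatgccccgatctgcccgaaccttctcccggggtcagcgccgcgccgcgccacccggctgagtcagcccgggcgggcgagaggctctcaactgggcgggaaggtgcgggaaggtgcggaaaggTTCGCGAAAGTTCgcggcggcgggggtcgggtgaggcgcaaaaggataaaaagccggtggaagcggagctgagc
For CHAC1, 30 bases around the match to the C/EBP-ATF response element, written TGATGNAA, are shown (chr15:40953251-40953280, plus strand). The match begins 209 bases before the RefSeq start, inside an exon of a longer annotated transcript.
CHAC1: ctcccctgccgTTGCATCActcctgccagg
A match describes the letters only. Of 27305 RefSeq promoters, 24.7% held a metal response element, 11.0% an antioxidant core, 4.16% an AP-1 site, 3.19% a C/EBP-ATF element, and 0.439% a heat-shock element. Of the 9446 tested genes with an entry, 33.9% held a metal response element, 12.1% an antioxidant core, 2.43% an AP-1 site, and 0.296% a heat-shock element, and 127 genes held a C/EBP-ATF element. Of the 60 genes with an entry that were higher at 6 h at any LFC, the shares were 31.7% for the metal response element, 16.7% for the antioxidant core, and 6.67% for each of the other 3.

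Genes were tested with the quasi-likelihood test of edgeR on 12341 genes with enough counts, and p-values were adjusted by Benjamini-Hochberg within the comparison. Differential expression required a log2 fold change (LFC, arsenic over non-treated) above 1 or below -1 together with an adjusted p below 0.05. At 6 h, 29 genes were higher with arsenic by this rule, 0.235% of those tested, and 6 were lower, 0.0486%. Without the limit on the LFC, 75 genes were higher (0.608%) and 38 lower (0.308%), whereas the median LFC over all genes tested was -0.00603. For each of the 35 differentially expressed genes the 3 arsenic libraries did not overlap the 3 non-treated libraries. Over all genes tested, the groups did not overlap in 16.1%, and the 35 were chosen for their difference in these same libraries. Of the 29 that were higher, 12 were on the list of ATF4 targets, 6 on that of heat-shock genes, 3 on that of NRF2 targets, and 2 on that of metallothionein and MTF1 genes, with SLC7A11 on both the ATF4 and the NRF2 list. Of the 6 that were lower, 0 were on any of the 18 lists of 452 genes examined. In the plot of level against change, most genes outside the band between -1 and 1 were low in level and did not pass the test.

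**Figure D1:**
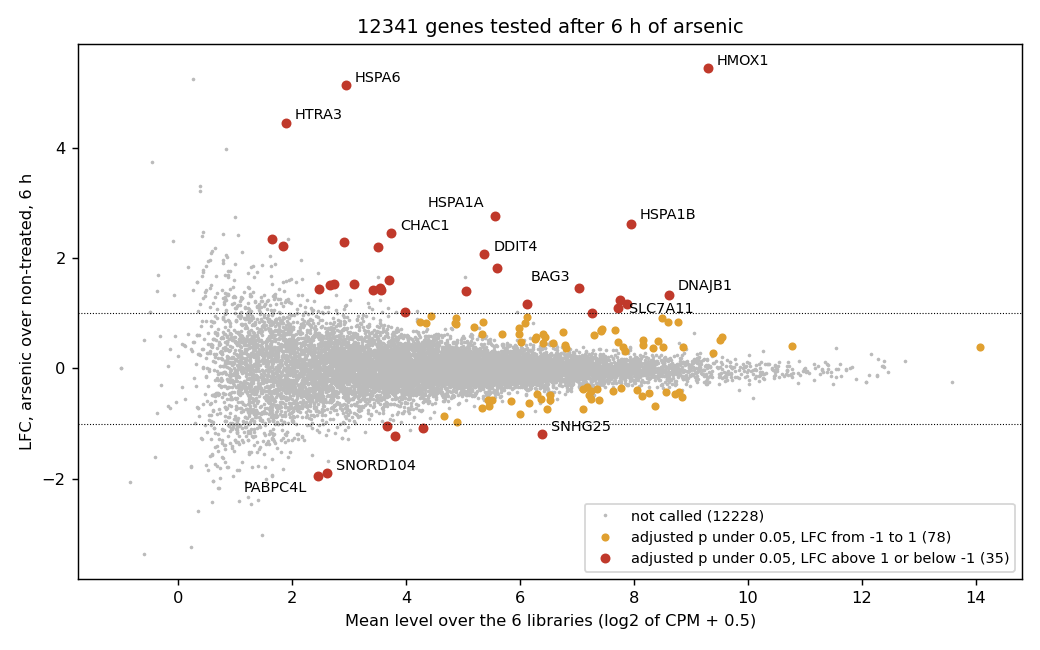
Mean level over the 6 libraries (log2 of CPM + 0.5, horizontal) against the LFC of arsenic over non-treated cells at 6 h (vertical) for the 12341 genes tested, with dotted lines at an LFC of -1 and 1. The 35 differentially expressed genes are red, other genes at an adjusted p under 0.05 are orange, and the rest are grey. The 29 red genes above the upper line reach an LFC of 5.44 at HMOX1, whereas the 6 red genes below the lower line reach -1.95 at PABPC4L.

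HMOX1, the heme oxygenase that breaks heme down to biliverdin, iron, and carbon monoxide, rose most. It lies on chromosome 22 of GRCh38 from 35380361 to 35394214. The non-treated libraries held 29.0, 20.8, and 34.7 CPM and the arsenic libraries 1256, 1241, and 1191 CPM. All arsenic libraries lay far above all non-treated libraries and close to each other, with means of 1229 ± 33.6 (SD, n = 3) and 28.2 ± 6.96 CPM (SD, n = 3). The LFC was 5.44 (standard error 0.17, adjusted p = 1.07e-37).

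Of the 39 NRF2 targets tested, 9 were higher and 0 lower, and the median LFC of the list was 0.27. Among the enzymes of glutathione synthesis, GCLM, the regulatory subunit of the rate-limiting ligase, went from 143, 157, and 132 CPM to 316, 311, and 350 CPM (LFC 1.17, standard error 0.09, adjusted p = 3.08e-15). The groups were well apart. GCLC, the catalytic subunit, had a low non-treated level of 9.14 ± 2.48 CPM (SD, n = 3), and its change did not pass the test (LFC 0.30, standard error 0.27, adjusted p = 0.785). SLC7A11, the exchanger that brings in cystine for glutathione, measured 140, 124, and 120 CPM without and 367, 273, and 262 CPM with arsenic, the first arsenic library standing above the other two (LFC 1.23, standard error 0.11, adjusted p = 2.56e-13). Its partner in the membrane, SLC3A2, increased less, with 130, 138, and 126 against 200, 225, and 208 CPM (LFC 0.69, adjusted p = 3.32e-06).

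In iron handling, FTH1, the ferritin heavy chain, was at 616, 580, and 624 CPM in non-treated and 904, 876, and 906 CPM in arsenic-treated cells (LFC 0.56, adjusted p = 4.17e-07), whereas the light chain FTL had an LFC of 0.22 (adjusted p = 0.28). The other members that rose were MAFG, a small partner of NRF2 on DNA (LFC 0.72, adjusted p = 0.000412), TXNRD1, the thioredoxin reductase (LFC 0.70, adjusted p = 0.00492), UGDH (LFC 0.46, adjusted p = 0.0148), TRIM16 (LFC 0.82, adjusted p = 0.0394), and the quinone reductase NQO1 (LFC 0.31, adjusted p = 0.0473). NQO1, often read as a marker of NRF2, was thus among the smaller changes called. When each of the 6 libraries was left out in turn, TXNRD1 lost its call without non-treated replicate 1 (LFC 0.58, adjusted p = 0.116), and UGDH, TRIM16, and NQO1 kept theirs in 2, 1, and 2 of the 6 fits. Glutathione reductase, GSR, had an LFC of 0.25 (adjusted p = 0.557), and ABCC1, an exporter of glutathione conjugates, 0.27 (adjusted p = 0.821). SRXN1, another known target, was listed at 0 in all 6 libraries. PSMA2, a proteasome gene that cells generally use, was also listed at 0, so a 0 in this table does not show that a gene was silent. On the list of 12 tested arsenic handling genes, GCLM was the only one called, and on that of 16 heme and iron genes HMOX1 and FTH1 were.

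Of the 30 heat-shock genes tested, 17 were higher at an adjusted p under 0.05 and 0 lower, 6 with an LFC above 1, and the median LFC was 0.42. HSPA1B, an inducible HSP70 on chromosome 6 (31827738 to 31830254), measured 52.6, 80.8, and 72.9 CPM in non-treated cells and 401, 442, and 422 CPM with arsenic (LFC 2.61, standard error 0.16, adjusted p = 5.83e-21). HSPA1A, its neighbour (31815543 to 31817946), measured 14.3, 11.3, and 10.6 against 85.8, 71.4, and 86.1 CPM (LFC 2.76, standard error 0.21, adjusted p = 2.81e-16). Neither gene had overlapping groups. The coding sequences of the pair are nearly the same, so the split of reads between them is uncertain.

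HSPA6, an HSP70 that is nearly silent without stress, had 2, 0, and 1 counts in the non-treated libraries and 49, 56, and 42 counts with arsenic, or 0.816, 0, and 0.321 against 14.7, 15, and 12.2 CPM. The ratio of the summed counts, scaled by the summed TMM-adjusted library sizes, was 38.7 (95% interval 13 to 190 for counting error only). The adjusted p was 1.17e-11, and reads of the similar gene HSPA7 could be part of these counts. The co-chaperones followed. DNAJB1, an HSP40 that hands clients to HSP70, went from 258, 205, and 204 to 552, 575, and 543 CPM (LFC 1.33, adjusted p = 2.56e-13), DNAJB4 from 14.3, 16.8, and 22.2 to 48.6, 47.8, and 46.7 CPM (LFC 1.41, adjusted p = 4.74e-07), and BAG3, a nucleotide exchange factor that links HSP70 to autophagy, from 62.8, 74.2, and 72.2 to 195, 186, and 197 CPM (LFC 1.46, adjusted p = 2.94e-13).

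The remaining heat-shock genes called changed by less than 1 on the log2 scale. The largest of them was HSPH1, the HSP110 exchange factor, with 276 ± 17.3 and 495 ± 20.6 CPM (SD, n = 3 each, LFC 0.84, adjusted p = 1.05e-12). The abundant HSP90AA1, the inducible cytosolic HSP90, had an LFC of 0.39 (adjusted p = 4.16e-05), HSPB1 of 0.41 (adjusted p = 0.00892), CRYAB of 0.38 (adjusted p = 0.0036), and HSPE1, the mitochondrial co-chaperonin, of 0.42 (adjusted p = 0.00118). HSPA1L, a testis-type HSP70 next to HSPA1A and HSPA1B that was picked after its values were seen, measured 4.08, 3.29, and 3.53 CPM without and 0.900, 0.802, and 0.290 CPM with arsenic, but did not pass the test (LFC -2.38, adjusted p = 0.203). With 1 library left out in turn, 14 of the 17 called members kept their calls in all 6 fits. HSPB1 lost its call without arsenic replicate 2 (LFC 0.37, adjusted p = 0.0831), CHORDC1 lost it without non-treated replicate 3 (adjusted p = 0.0667), and CACYBP, a binding partner of calcyclin, kept it in 2 of the 6 (adjusted p up to 0.161). Of 16 called heat-shock genes with a promoter entry, 4 (CHORDC1, DNAJB6, HSPA6, and HSPA8) held a heat-shock element in the 250 bases before the start, against 0.296% of the 9446 tested genes with an entry.

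Of the 42 ATF4 targets tested, 25 were higher and 0 lower, 12 with an LFC above 1, and their median LFC was 0.74. CHAC1, an enzyme that degrades glutathione, measured 2.86, 4.39, and 4.49 CPM in non-treated cells and 20.7, 28.1, and 16.5 CPM with arsenic (LFC 2.45, standard error 0.34, adjusted p = 4.74e-07). DDIT4, an inhibitor of mTORC1, measured 15.1, 14.3, and 17.7 against 51.3, 65.5, and 81.2 CPM (LFC 2.07, adjusted p = 4.74e-12), and SESN2, a leucine sensor that also restrains mTORC1, 20.0, 21.6, and 21.8 against 85.2, 67.6, and 71.1 CPM (LFC 1.81, adjusted p = 6.65e-12). In all 3 genes every arsenic library lay above every non-treated library, with the widest spread among arsenic libraries in DDIT4 and CHAC1.

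Among transcription factors of this group, CEBPB stood at 115, 149, and 136 CPM without and 290, 286, and 284 CPM with arsenic (LFC 1.10, adjusted p = 5.33e-10). ATF3 was at 6.53, 4.02, and 6.10 CPM in non-treated cells and at 7.20, 17.4, and 20.0 CPM in arsenic-treated cells (LFC 1.42, adjusted p = 0.00528). Its first arsenic library barely exceeded the non-treated ones, and the call was lost without arsenic replicate 2 or 3 or without non-treated replicate 2. NUPR1 measured 0, 1.10, and 1.93 against 7.20, 5.08, and 3.19 CPM, just under the threshold (LFC 2.23, adjusted p = 0.05 after rounding). DDIT3, the pro-apoptotic factor CHOP, had an LFC of 0.83 (adjusted p = 0.0228) and TRIB3, an inhibitor of AKT and ATF4, of 0.91 (adjusted p = 0.00451). With 1 library left out, NUPR1 was called in 2 and DDIT3 in 3 of the 6 fits, and TRIB3 lost it without non-treated replicate 1 (LFC 0.80, adjusted p = 0.0777). ATF4 itself, which is on no list and was picked after its values were seen, measured 363, 261, and 311 CPM without and 598, 528, and 546 CPM with arsenic (LFC 0.84, adjusted p = 8.41e-06).

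Secreted factors of the group included VEGFA, the angiogenic growth factor, with 6.12, 8.77, and 3.85 against 16.2, 22.2, and 18.0 CPM (LFC 1.6, adjusted p = 0.00058), STC2 (LFC 1.01, adjusted p = 4.77e-09), GDF15 (LFC 1.52, adjusted p = 0.0275), and INHBE. The last had 2, 2, and 3 counts in non-treated and 14, 19, and 14 counts in arsenic-treated cells, a ratio of 5.30 (95% counting interval 2.38 to 13.9, adjusted p = 0.02). Amino acid carriers rose by less than 1 on the log2 scale apart from SLC7A11. SLC7A5, the large neutral amino acid carrier that also pairs with SLC3A2, had an LFC of 0.73 (adjusted p = 0.00771), SLC1A4, a carrier of serine and alanine, of 0.81 (adjusted p = 0.00527), and SLC38A2 of 0.48 (adjusted p = 0.000233). Leaving out 1 library ended the call of SLC1A4 without non-treated replicate 1 (LFC 0.74, adjusted p = 0.0664) and that of SLC7A5 without arsenic replicate 1 or non-treated replicate 2, whereas GDF15 kept its call in 3 and INHBE in 2 of the 6 fits. SLC6A9, the glycine carrier, went from 6.53, 8.77, and 5.78 to 12.6, 12.0, and 15.1 CPM without overlap but did not pass the adjusted threshold (LFC 0.91, adjusted p = 0.0842).

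Enzymes of the same list that make amino acids and one-carbon units were also higher, namely PSAT1 (LFC 0.69, adjusted p = 0.000364), MTHFD2 (LFC 0.61, adjusted p = 0.000334), PHGDH (LFC 0.38, adjusted p = 0.0165), and GPT2, an alanine aminotransferase (LFC 0.93, adjusted p = 5.12e-07). CTH, which makes cysteine from cystathionine, was also just under the threshold (LFC 1.43, adjusted p = 0.05 after rounding). SHMT2 (LFC -0.02, adjusted p = 0.975), PYCR1 (LFC -0.00, adjusted p = 0.996), and ALDH18A1 (LFC -0.09, adjusted p = 0.925) gave values near 0. Of the 20 cytosolic tRNA synthetases, also known targets of ATF4, only CARS1 was called (LFC 0.42, adjusted p = 0.0264), and the median LFC was 0.05. With 1 library left out, CARS1 was called in 0, CTH in 1, and PHGDH in 4 of the 6 fits.

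**Figure D2:**
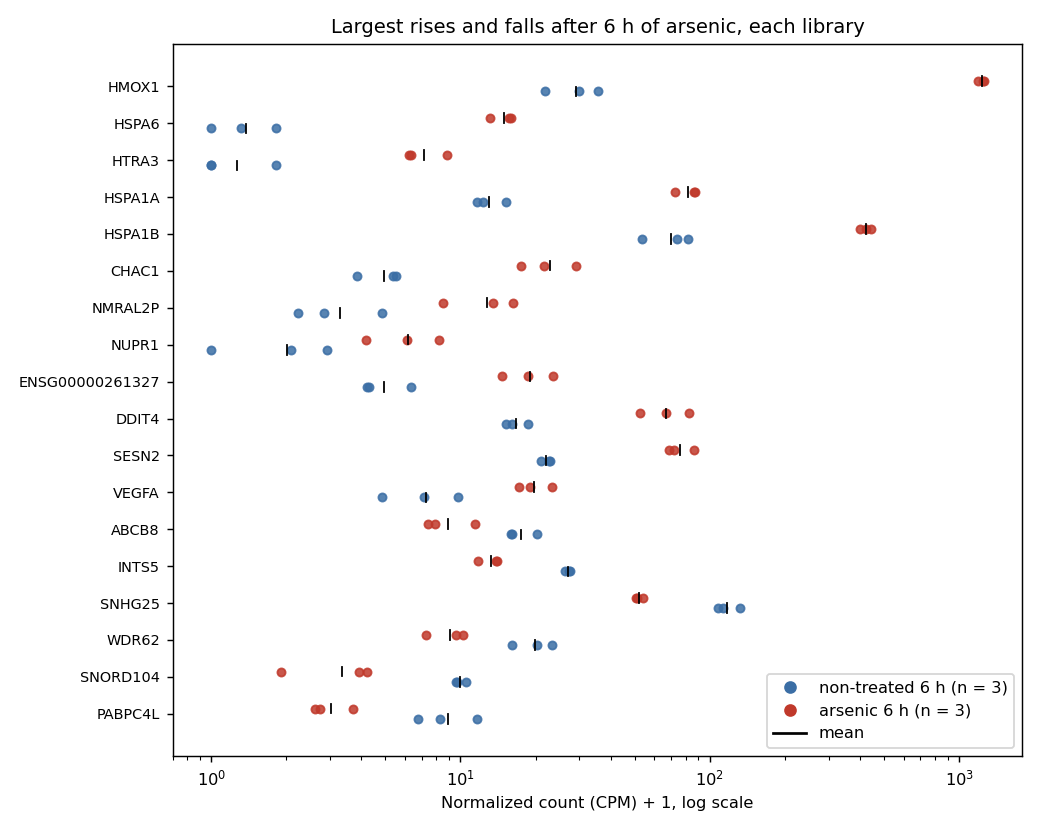
CPM + 1 on a log axis in each of the 3 non-treated (blue) and 3 arsenic (red) libraries for the 12 largest rises and the 6 largest falls among differentially expressed genes whose mean count reached 10, with short black lines at the group means. HMOX1 moves from 20.8 to 34.7 CPM up to 1191 to 1256 CPM, and the blue and red points do not overlap in these 18 genes, which were chosen for their difference. The same holds for 16.1% of all genes tested.

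Of the 7 tested on the metallothionein and MTF1 list, MT1E, SLC30A1, and MT1X were higher and 0 were lower, with a median LFC of 0.38 over the list. SLC30A1, which exports zinc across the plasma membrane (chromosome 1, 211571568 to 211579161), measured 36.7, 42.4, and 48.5 CPM without and 93.3, 97.5, and 97.7 CPM with arsenic (LFC 1.17, standard error 0.14, adjusted p = 3.27e-09). MT1E (chromosome 16, 56625475 to 56627112), a small cysteine-rich protein that binds metals, measured 204, 250, and 289 against 436, 462, and 512 CPM (LFC 0.92, standard error 0.11, adjusted p = 1.58e-09). MT1X, whose 4 metal response elements are printed above, was low, with 8.98, 6.95, and 2.89 against 12.3, 16.3, and 20.3 CPM (LFC 1.42, standard error 0.26, adjusted p = 0.000232), and it shares sequence with related metallothioneins.

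MT2A, the metallothionein with the most counts in these libraries, was at 2540, 2591, and 2646 CPM in non-treated and 3295, 3362, and 3439 CPM in arsenic-treated cells. These groups were tight and did not overlap, yet the call rested on the fit. With the spread shared over all 60 libraries, the LFC of 0.38 was not significant (adjusted p = 0.518), and with only the 6 libraries compared it was (LFC 0.38, adjusted p = 4.38e-05), as it was without a filter on low counts (LFC 0.39, adjusted p = 8.83e-05). The cause of this dependence was not tested. MTF1 itself had an LFC of -0.01 (adjusted p = 0.992). The zinc importers SLC39A10 (LFC -0.55, adjusted p = 0.565) and SLC39A14 (LFC 0.09, adjusted p = 0.922) did not pass the test, and SLC30A1 was the only one called of 16 zinc transporters tested. MT1A, MT1F, MT1G, MT1H, MT1L, MT1M, MT3, and MT4 were listed at 0 in all 6 libraries.

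Of the differentially expressed genes that rose, 7 were on no list. HTRA3, a secreted serine protease, had 2, 0, and 0 counts without and 26, 20, and 18 counts with arsenic, a ratio of 25.2 (95% counting interval 6.71 to 213, adjusted p = 0.000233). NMRAL2P, a transcribed pseudogene with overlapping annotations of the same name, measured 1.22, 1.83, and 3.85 against 15.3, 12.6, and 7.54 CPM (LFC 2.29, adjusted p = 9.15e-05). An unnamed long non-coding RNA, ENSG00000261327 (chromosome 16, 88177298 to 88186929, minus strand), measured 5.31, 3.29, and 3.21 against 22.5, 17.6, and 13.6 CPM (LFC 2.2, adjusted p = 7.97e-06). In the 3 genes every arsenic library lay above every non-treated library. The others were KCNH1, a potassium channel (LFC 1.54, adjusted p = 0.00911), ULBP1, a stress-induced ligand of the natural killer cell receptor NKG2D (LFC 1.52, adjusted p = 0.00284), TSC22D3, the glucocorticoid-induced leucine zipper (LFC 1.45, adjusted p = 0.00739), and MSX1, a homeobox factor (LFC 1.02, adjusted p = 0.0476). Without non-treated replicate 1, TSC22D3 (LFC 1.17, adjusted p = 0.142) and KCNH1 (LFC 1.42, adjusted p = 0.0859) lost their calls, and MSX1 lost it without any 1 of the 6 libraries.

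The 6 genes that fell were mostly low in count and had no list in common. In INTS5, ABCB8, PABPC4L, WDR62, and SNHG25, the non-treated mean at 6 h lay above those at 3, 12, and 24 h. It was 26.0 CPM against 14.7, 17.3, and 17.8 for INTS5, and 16.4 against 11.0, 10.7, and 9.17 for ABCB8. For PABPC4L it was 7.90 against 4.27, 4.46, and 5.26, and for WDR62 18.9 against 13.35, 12.3, and 16.4. For SNHG25 it was 116 against 78.1, 114, and 105. The part of this in the falls was not tested. SNHG25, a host gene of small nucleolar RNAs (chromosome 17, 64145937 to 64146476), was the best measured, with 131, 111, and 107 CPM in non-treated and 50.1, 49.4, and 52.8 CPM in arsenic-treated cells (LFC -1.19, standard error 0.22, adjusted p = 0.00025). SNORD104, the small nucleolar RNA within SNHG25 (64146083 to 64146152), had 21, 26, and 27 counts against 3, 12, and 10 (ratio 0.27, 95% counting interval 0.16 to 0.42, adjusted p = 0.0221), and reads of host and guest lie over each other. PABPC4L, a poly(A)-binding protein, measured 10.6, 7.31, and 5.78 against 2.7, 1.6, and 1.74 CPM (LFC -1.95, adjusted p = 0.0245). WDR62, a spindle pole protein, measured 19.2, 22.3, and 15.1 against 6.30, 8.55, and 9.28 CPM (LFC -1.22, adjusted p = 0.0103).

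INTS5, a subunit of the Integrator complex that processes small nuclear RNAs, was at 26.5, 25.2, and 26.3 CPM without and 10.8, 12.8, and 13.1 CPM with arsenic (LFC -1.09, adjusted p = 0.00539), and ABCB8, a mitochondrial transporter, at 19.2, 15, and 15.1 against 6.90, 10.4, and 6.38 CPM (LFC -1.04, adjusted p = 0.0275). When each of the 6 libraries was left out in turn, SNHG25 kept an adjusted p under 0.05 every time (LFC from -1.25 to -1.09), whereas INTS5 lost it without arsenic replicate 1 and the other 4 lost it in 3 to 5 of the 6 fits. Against the same non-treated libraries, each of the genes that fell also had an LFC below 0 with cadmium and with mercury. SNHG25 was called with cadmium (LFC -1.36, adjusted p = 1.97e-05). INTS5 (LFC -0.88, adjusted p = 0.0103) and PABPC4L (LFC -1.71, adjusted p = 0.0137) were called with mercury. Among 15 snoRNA host genes tested as a list, which does not hold SNHG25, SNHG12 was lower (LFC -0.56, adjusted p = 0.0236, called in 2 of the 6 fits) and the median LFC was -0.04.

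Few members of the other groups examined were called at 6 h. Of 25 genes for chaperones and the unfolded protein response of the endoplasmic reticulum, HERPUD1, a degradation factor that ATF4 can also drive (LFC 0.85, adjusted p = 0.000239), and XBP1 (LFC 0.54, adjusted p = 0.0022) were higher, and the median LFC was 0.01. In 31 proteasome genes 0 were called (median LFC 0.03), as in 14 selective autophagy genes (0.19), 24 cholesterol and fatty acid synthesis genes (0.03), 34 DNA replication genes (-0.07), and 30 immediate-early and MAPK feedback genes (0.15). Among 20 p53 targets, PHLDA3, an inhibitor of AKT, was higher (LFC 0.57, adjusted p = 0.00771), with a median LFC of 0.00. Among 13 NF-kB and cytokine genes, BIRC3, an inhibitor of apoptosis, was lower, from 49.8, 55.9, and 53.9 to 32.4, 35, and 31.6 CPM (LFC -0.69, adjusted p = 0.00892). With 1 library left out, BIRC3 was called in 3 and PHLDA3 in 4 of the 6 fits.

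The 27 genes of G2 and mitosis had a summed level of 7426 to 7802 CPM in non-treated and 6481 to 6743 CPM in arsenic-treated cells, and their median LFC was -0.13. CENPE, a kinetochore motor (LFC -0.49, adjusted p = 0.00492), and MKI67 (LFC -0.42, adjusted p = 0.0389) were lower. CENPE lost the call without arsenic replicate 3 (LFC -0.44, adjusted p = 0.072), and MKI67 kept it in 2 of the 6 fits. In the plot of gene lists, the ATF4, heat-shock, metallothionein, and NRF2 lists lie highest by their median. The lists were chosen with earlier results of these data known, so this order is not an independent test. For the metallothionein list the median is the value of MT2A, which did not pass the test, and 4 of its 7 tested members lie above 0.

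The other time points came from other libraries, each with its own non-treated cells, and show when the genes of 6 h were changed. Of the 29 genes that were higher at 6 h, 10 were also higher at an adjusted p under 0.05 at 3 h, 25 at 12 h, and 26 at 24 h. Over all genes tested, the shares higher at those times were 0.122%, 2.37%, and 6.54%. Their median LFC, 0.64 at 3 h and 1.52 at 6 h, was 1.58 after 12 h and 1.95 after 24 h, and at 1.5 h 0 were called (median 0.08). All 29 lay above 0 at 12 h and 27 at 24 h. Of the 75 genes higher at 6 h at any LFC, 14 were higher at 3 h, which were 14 of the 15 called higher at that time, 64 at 12 h, and 63 at 24 h.

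Of the 6 genes that were lower at 6 h, 0 were lower at 3 h, where 0.0162% of all genes were, and 1 at both 12 h and 24 h, where 1.74% and 7.75% of all genes were. This gene was SNHG25 (LFC -0.84, adjusted p = 0.00757 at 12 h, and LFC -0.66, adjusted p = 0.024 at 24 h). The 6 had a median LFC of -1.21 at 6 h, against -0.01 at 3 h, -0.32 after 12 h, and -0.37 after 24 h. Of the 38 genes lower at any LFC, 16 were lower at 12 h and 25 at 24 h.

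Of 30 heat-shock genes, those higher numbered 9, 17, 19, and 13 at 3, 6, 12, and 24 h, in that order, with a median LFC of 0.24, 0.42, 0.47, and 0.30. Of 42 ATF4 targets, 1, 25, 35, and 37 were higher at these times, with a median LFC of 0.16, 0.74, 1.2, and 1.45. Of 39 NRF2 targets, 2, 9, 22, and 34 were higher, with a median LFC of 0.15, 0.27, 0.60, and 1.03. Of the 20 tRNA synthetases, 1 at 6 h, 10 at 12 h, and 11 at 24 h were higher.

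Testing the difference between the effects at 6 and 3 h called 8 genes, 0.0648% of those tested. HMOX1 grew by a further 1.19 (adjusted p = 0.0155) from an LFC of 4.25 at 3 h. Of the ATF4 targets, GPT2 (1.07, adjusted p = 0.0019), SLC7A11 (0.96, adjusted p = 0.00139), CEBPB (0.82, adjusted p = 0.0225), and SLC3A2 (0.70, adjusted p = 0.0177) had a larger LFC at 6 h than at 3 h. ZC3H7A (0.98, adjusted p = 0.016) and the long non-coding RNA LINC01133 (0.82, adjusted p = 0.0176) also shifted upward. The anion exchanger SLC4A2 shifted downward (-1.19, adjusted p = 0.0129). Its LFC was 0.365 at 3 h (adjusted p = 0.622) and -0.83 at 6 h, where it was called lower (adjusted p = 0.00136). ZC3H7A had an LFC of -0.46 at 3 h (adjusted p = 0.259) and of 0.52 at 6 h (adjusted p = 0.0546), neither past the test. No heat-shock gene was called here, and HSPA1B had LFCs of 2.30 at 3 h and 2.61 at 6 h, which differed by 0.31 (adjusted p = 0.779). Of 12 fits that each left out 1 library, GPT2 and SLC7A11 were called in all 12, HMOX1 in 10 (lost without non-treated replicate 2 at 6 h or non-treated replicate 3 at 3 h, at an LFC difference down to 0.99), ZC3H7A in 9, SLC3A2 and SLC4A2 in 8, and CEBPB in 7.

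Between 6 and 12 h, the LFC of arsenic over non-treated cells shifted upward for 16 genes (0.13%) and downward for 22 (0.178%). Heat-shock genes were among the latter. HSPA1B had a difference of -1.18 (adjusted p = 0.0017), DNAJB1 of -0.87 (adjusted p = 0.00335), and BAG3 of -0.82 (adjusted p = 0.0203), so that DNAJB1, at an LFC of 1.33 at 6 h, was at 0.46 at 12 h and -0.16 at 24 h. HSPA6 had an LFC of 5.13 at 6 h, 0.94 at 12 h, and 3.56 at 24 h, but at its low counts the difference of -4.19 did not pass (adjusted p = 0.0692). Its arsenic mean was alike at 12 and 24 h (1.46 and 1.52 CPM), whereas the non-treated mean, near the floor, was 0.726 and 0.0859 CPM. The LFCs at 12 and 24 h thus do not show a return of HSPA6. Genes of glutathione, iron, and metal binding were among those that shifted upward, with GCLM at 0.75 (adjusted p = 0.000864), MT1E at 0.67 (adjusted p = 0.015), and FTH1 at 0.60 (adjusted p = 0.00114). The same held for XBP1 (0.73, adjusted p = 0.012), the tRNA synthetase gene GARS1 (0.98, adjusted p = 5.68e-05), the translation inhibitor EIF4EBP1 (0.95, adjusted p = 0.0152), and the mitochondrial import gene TIMM44 (1.06, adjusted p = 0.015). EIF4EBP1 went from an LFC of -0.14 at 6 h to 0.81 at 12 h and TIMM44 from -0.40 to 0.65, so their sign changed. NANP, a phosphatase of sialic acid synthesis, had a difference of -1.75 (adjusted p = 0.0417) from an LFC of 1.10 at 6 h that had not passed the test (adjusted p = 0.0647). The imprinted gene MEST had a difference of -1.52 (adjusted p = 0.0355), with an LFC of 0.08 at 6 h (adjusted p = 0.956) and of -1.45 at 12 h (adjusted p = 5.56e-05). In the 12 fits that left out 1 library, HSPA1B, DNAJB1, FTH1, GCLM, and GARS1 kept their calls each time, XBP1 in 8, BAG3, MT1E, and TIMM44 in 7, EIF4EBP1 in 6, MEST in 4, and NANP in 3. The time course plot sets these courses side by side.

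**Figure D3:**
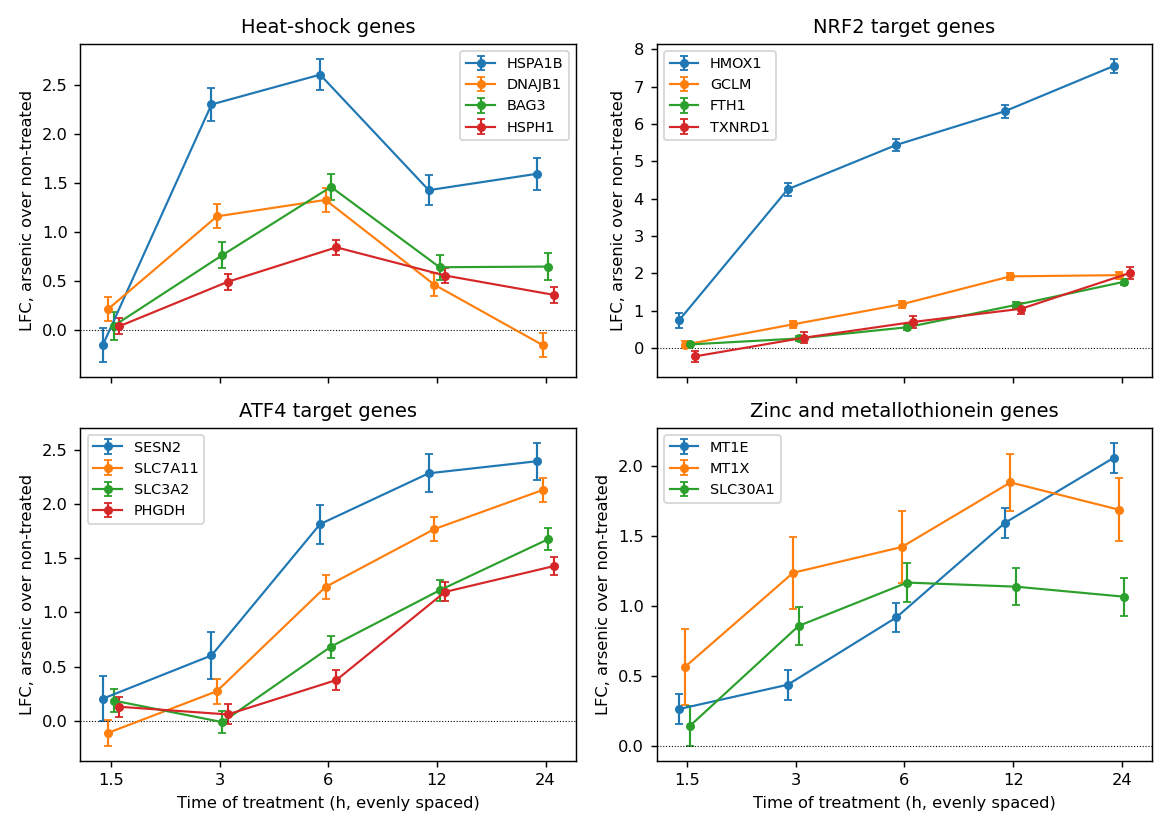
LFC of arsenic over the non-treated cells collected alongside (vertical, bars are standard errors, n = 3 libraries per group) at the 5 time points from 1.5 to 24 h (horizontal, evenly spaced) for members of 4 groups. HSPA1B is at 2.61 at 6 h and 1.43 at 12 h, GCLM at 1.17 and 1.92, and HMOX1 at 5.44 and 6.34, of which the difference for HMOX1 did not pass the test (0.90, adjusted p = 0.0783).

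Arsenic was finally set against the other metals at 6 h. The comparisons with non-treated cells share the same 3 non-treated libraries, so the metals were compared directly, at doses of 2.55 µM arsenic, 2.3 µM cadmium, and 20 µM mercury, which differ. Against cadmium, 21 genes were higher with arsenic (0.17%) and 125 lower (1.01%). The metallothionein group showed the widest gap, with 5 of its 7 tested members lower with arsenic. MT1X stood at 16.3 ± 4 CPM (SD, n = 3) with arsenic and 170 ± 4.45 with cadmium, an LFC of -3.38 (adjusted p = 6.71e-25). MT1E was at 470 ± 38.7 and 3243 ± 179 CPM (LFC -2.79, adjusted p = 8.72e-32), MT2A differed by an LFC of -1.78 (adjusted p = 2.27e-10), and SLC30A1 was at 96.2 ± 2.51 and 273 ± 30.5 CPM (LFC -1.5, adjusted p = 2.37e-15). MT1B had the largest LFC, -6.70 (adjusted p = 0.00103), but was low, with a mean of 0 CPM with arsenic and 3.95 ± 0.991 CPM with cadmium.

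The NRF2 list held 0 genes that differed between arsenic and cadmium. HMOX1 was at 1229 ± 33.6 CPM with arsenic and 958 ± 133 with cadmium, and the LFC between them of 0.36 did not pass the test (standard error 0.13, adjusted p = 0.211). GCLM differed by 0.20 (adjusted p = 0.445) and SLC7A11 by 0.10 (adjusted p = 0.877). A p that misses the threshold does not show that the metals acted alike. Of the heat-shock genes, HSPA6 (LFC -2.21, adjusted p = 9.79e-14), HSPA1A (-0.91, adjusted p = 4.15e-05), and ZFAND2A (-1.10, adjusted p = 0.00813) were lower with arsenic, whereas HSPA1B differed by -0.17 (adjusted p = 0.819). ZFAND2A encodes AIRAP, known as an arsenite-inducible protein, and at this dose and time its LFC over non-treated cells was 0.53 (adjusted p = 0.62).

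Immediate-early and MAPK feedback genes, of which 0 of 30 had passed the test against non-treated cells, gave 10 lower with arsenic than with cadmium. Against mercury, 14 members of this list differed, all lower with arsenic. The members shown here were picked after values were seen. DUSP6, a phosphatase that switches off ERK, was at 11.8 ± 0.33 CPM in non-treated cells, 13.6 ± 2.72 with arsenic, and 32.0 ± 5.33 with cadmium (SD, n = 3 each, LFC of arsenic over cadmium -1.23, adjusted p = 7.03e-05). JUN, a subunit of AP-1, was at 273 ± 12.5, 235 ± 10.1, and 369 ± 13.5 CPM (LFC -0.65, adjusted p = 3.55e-08). BIRC3 was also lower with arsenic (LFC -1.11, adjusted p = 5.83e-07), ULBP1 was higher (LFC 1.37, adjusted p = 0.00684), and so were the ephrin genes EFNA1 (3.54, adjusted p = 0.0179) and EFNA4 (1.6, adjusted p = 0.0271) and the innate sensor NOD1 (1.92, adjusted p = 0.0489), which differed from non-treated cells by LFCs of 0.47, -0.21, and 0.82, none of them past the test (adjusted p = 0.874, 0.905, and 0.625). Levels were low, with EFNA1 at 3.05 ± 2.27 CPM with arsenic and 0.249 ± 0.216 with cadmium (SD, n = 3). EFNA4 was at 8.33 ± 1.33 and 2.66 ± 2.13 CPM, and NOD1 at 7.07 ± 2.65 and 1.86 ± 0.332. Against non-treated cells, EFNA4 was called lower with cadmium (LFC -1.81, adjusted p = 0.00505), whereas EFNA1 and NOD1 were not called (adjusted p = 0.0683 and 0.414). Leaving out 1 library in turn, ULBP1 lost its call against cadmium without cadmium replicate 2 (LFC 1.29, adjusted p = 0.056). EFNA1, EFNA4, and NOD1 kept theirs in 1, 2, and 1 of the 6 fits.

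Against mercury, 174 genes were higher with arsenic (1.41%) and 379 lower (3.07%). The responsive groups were weaker with arsenic in most of the members called. Of 24 ATF4 targets that differed, 23 were lower with arsenic, as were 13 of 14 NRF2 targets, 17 heat-shock genes, and 3 metallothionein and MTF1 genes. All 14 immediate-early and MAPK feedback genes that differed were lower with arsenic as well. HSPA6 differed by -3.14 (13.9 ± 1.54 against 123 ± 20.6 CPM, adjusted p = 2.72e-21), HSPA1B by -0.89 (adjusted p = 5.07e-06), STC2 by -1.21 (adjusted p = 2.08e-12), DDIT4 by -0.98 (adjusted p = 1.59e-05), SESN2 by -0.83 (adjusted p = 8.28e-05), and SLC7A11 by -0.72 (adjusted p = 1.09e-06). HMOX1, at 1598 ± 206 CPM with mercury, differed by -0.38 (adjusted p = 0.0653) and SLC30A1 by -0.17 (adjusted p = 0.52). Of the few members higher with arsenic, TXNIP, a gene on the ATF4 list whose protein binds thioredoxin, was at 62.3 ± 9.75 CPM in non-treated cells, 51.8 ± 6.91 with arsenic, and 19.9 ± 4.12 with mercury (LFC of arsenic over mercury 1.37, adjusted p = 1.23e-08).

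**Figure D4:**
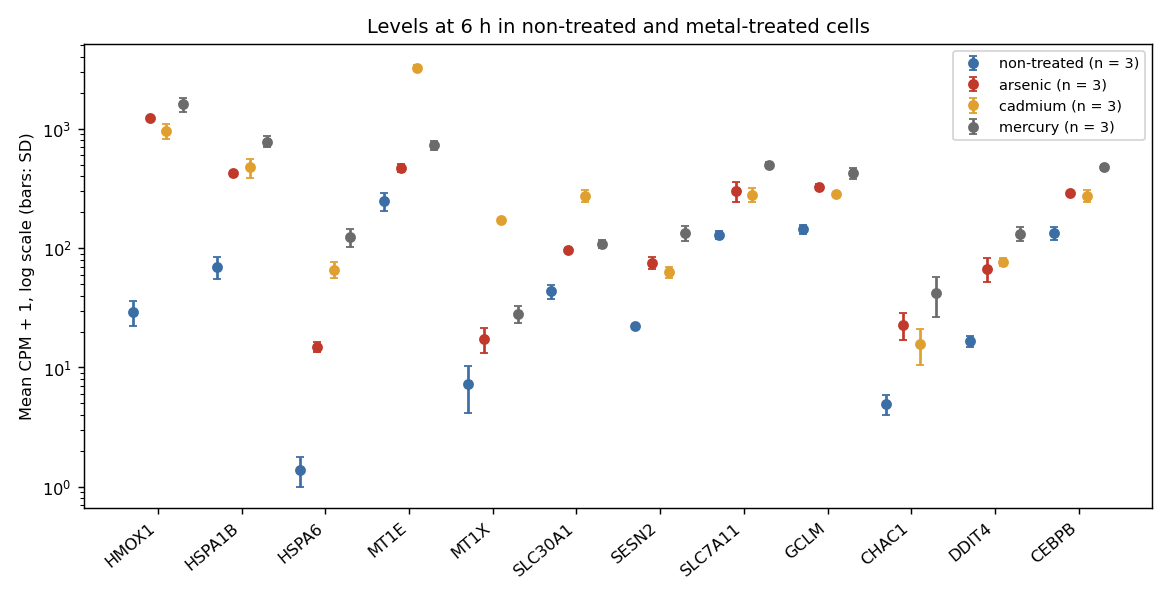
Mean CPM + 1 on a log axis (points, bars are SD, n = 3 libraries each) of 12 genes at 6 h without metal and with each of the 3 metals. For HMOX1 the metals lie at 958 to 1598 CPM, whereas MT1E is at 470 CPM with arsenic, 726 with mercury, and 3243 with cadmium.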

How the data were processed

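Of 60 libraries of 1321N1 cells, the 3 arsenic and 3 non-treated libraries of 6 h are described, grouped by their titles. The authors aligned the reads of the 3′ mRNA libraries to GRCh38 with STAR 2.7.9a (version from the submitters' processing notes), counted reads on exons of the GENCODE basic annotation by strand in Union mode, which drops reads that overlap more than 1 gene, and deposited whole-number counts per gene without normalization. The table held 62703 genes, of which 28620 had a count, and 92 spike-in rows with 0 counts. All 60 libraries were fitted in edgeR 4.0.16 (R 4.3.3) with 20 groups of metal or non-treated by time point, TMM normalization, and filterByExpr (minimum count 10, minimum total 15), which left 12341 genes. The common biological coefficient of variation was 0.12. Adjusted p-values are from the quasi-likelihood test with Benjamini-Hochberg adjustment within each contrast: arsenic against non-treated, its difference from 3 h and from 12 h, and arsenic against cadmium or mercury. CPM are counts scaled to the TMM-adjusted library size. At the depth of the 6 libraries, 3 counts correspond to 0.80 to 1.22 CPM. Where the non-treated libraries held few counts, exact 95% intervals of the ratio cover counting error only.

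The members and gene lists were chosen with earlier results of these data known. Named were the differentially expressed genes, up to 3 members of each list with the smallest p among those called, genes the study names, and the 3 largest changes in each direction of the other contrasts. Of the last, CEBPB-AS1, ENSG00000286388, PRMT9, CXCL8, and GOLGA6L9, picked for arsenic against mercury, are not described. For the 12 largest rises and 6 largest falls with a mean of at least 10 counts, each library is given. Other list members and ATF4 were added after their values were seen. Within groups, the log CPM of libraries correlated at 0.965 to 0.973 across genes. A chi-square of counts between any pair of libraries of the same group was at least 2.2 times its degrees of freedom. No library was therefore counted as a copy of another in its group, and pairs across groups were not tested in this way. On simulated counts for arsenic at 6 h, with 11770 genes in the fit, the test called 191 of 200 changed genes and 9 unchanged ones, and 0 in a comparison without change. The changed genes were well counted in non-treated cells and had an LFC of at least 1 in size, and all genes shared the same spread. The simulation therefore does not show how well low-count genes or smaller changes are found. The alternatives were DESeq2 1.42.0, RLE factors, no filter or a stricter one, a replicate block, only the libraries compared, glmTreat (limma 3.58.1 was loaded with edgeR), and leaving out each library. Promoter letters come from RefSeq (GRCh38.p14), matched by symbol for 22 of the 29 genes higher and 9446 of the 12341 tested. Reads were not realigned, and the genetic screens of the study were not analysed here. A gene that the naming rule picked for the difference from 12 h is not reported here.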

Additional observations from a re-analysis of the deposited data

Results flagged for a closer look

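A test of the difference between time points picked out 19 of the named genes, whose response to arsenic at 6 h differed from that at 3 h or at 12 h. From 3 h to 6 h, the LFC shifted by 1.19 for HMOX1, 1.07 for GPT2, 0.98 for ZC3H7A, 0.96 for SLC7A11, 0.82 for CEBPB, 0.70 for SLC3A2, and -1.19 for SLC4A2. For ZC3H7A the non-treated mean was 64.4 CPM at 3 h and 38.0 CPM at 6 h, against 46.9 and 54.5 CPM with arsenic. Its comparison with non-treated cells did not pass the test at 6 h (LFC 0.52, adjusted p = 0.0546). SLC4A2, which exchanges chloride for bicarbonate, measured 95.9, 78.6, and 70.3 CPM in non-treated cells and 33.6, 44.4, and 59.2 CPM with arsenic at 6 h.

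From 6 h to 12 h, the LFC shifted by 1.06 for TIMM44, 0.98 for GARS1, 0.95 for EIF4EBP1, 0.75 for GCLM, 0.73 for XBP1, 0.67 for MT1E, and 0.60 for FTH1. Over the same interval it changed by -1.75 for NANP, -1.52 for MEST, -1.18 for HSPA1B, -0.87 for DNAJB1, and -0.82 for BAG3. For NANP, TIMM44, MEST, EIF4EBP1, and GARS1 the comparison of arsenic with non-treated cells at 6 h did not pass the test (adjusted p of 0.0647, 0.383, 0.956, 0.839, and 0.341).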

How the results depend on the processing

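RLE factors, a stricter filter, and DESeq2 kept all 35 differentially expressed genes at 6 h, no filter kept 33 (without ABCB8 and CTH), and only the 6 libraries compared kept 31. A test of an LFC beyond 1 (glmTreat) kept 8, all of them higher, namely HMOX1, HSPA1B, HSPA1A, DDIT4, SESN2, HSPA6, CHAC1, and HTRA3, and 0 of the 6 falls. It called 8 genes in all (8 higher, 0 lower), 0 for each difference between time points, 10 for arsenic against cadmium, and 3 for arsenic against mercury. Genes lower at any LFC numbered 38, but 71 with only the libraries compared and 62 with DESeq2. The difference from 3 h called 8 genes, against 48 without a filter, 21 with only the libraries compared, and 31 with DESeq2, and the difference from 12 h called 38, against 79 without a filter and 93 with DESeq2. Arsenic against mercury called 553, and 368 with only the libraries compared.

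Leaving out 1 library at a time gave 29 to 43 differentially expressed genes (25 to 35 higher, 2 to 8 lower), with only 2 lower without non-treated replicate 2 at 6 h. At any LFC, 56 to 71 were higher and 15 to 27 lower, with 15 lower without non-treated replicate 1, 18 without arsenic replicate 1, and 25 without non-treated replicate 2. The difference from 3 h called 4 to 20 genes, with 4 without arsenic replicate 1 and 16 without arsenic replicate 3 at 6 h, 5 without non-treated replicate 2 and 20 without arsenic replicate 1 at 3 h. The difference from 12 h called 17 to 42, with 17 to 22 without arsenic replicate 1 or 2 or non-treated replicate 1 or 3 at 6 h, or arsenic replicate 1 or non-treated replicate 1 or 2 at 12 h. Arsenic against cadmium called 89 to 131, with 89 without arsenic replicate 2 and 95 without cadmium replicate 1, and arsenic against mercury 289 to 751, with 289 to 358 without arsenic replicate 1 or 2 or mercury replicate 1 or 2. These fits hold 1 library less than the full fit, and the cause of each change was not tested.

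Replicate numbers were not taken as pairs, since deviations of same-numbered arsenic and non-treated libraries at 6 h correlated at 0.0547, 0.00432, and 0.00143. With the replicate block, 27 genes were higher and 6 lower, and NUPR1 and CTH lost the call. No named value that was called, in full or under an alternative, changed sign. Over single genes, 2206 values under an alternative kept their side of the threshold, 571 lost it, and 15 gained it. With total counts of 2439814 to 3660738 per library, genes under 1.22 CPM were near the floor of 3 counts, so falls of low genes were hard to detect.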

Other observations

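Of the 38 genes lower with arsenic at 6 h at any LFC, the 6 with an LFC below -1 and the 4 on a list are described above. The following others were picked after their values were seen. The calls with the smallest p included ZFP36L2, which binds AU-rich elements and speeds mRNA decay (LFC -0.68, adjusted p = 1.14e-06), the membrane protein TM4SF1 (LFC -0.51, adjusted p = 1.23e-05), RGS4, a brake on G protein signaling (LFC -0.74, adjusted p = 2.33e-05), and FST, the activin antagonist follistatin (LFC -0.57, adjusted p = 0.000108). All 4 were also lower at 12 h, with LFCs of -0.66, -0.82, -0.97, and -0.72, and at 24 h, with LFCs of -0.90, -0.94, -1.57, and -0.67. By contrast, the spindle gene WDR62 and ABCB8 had LFCs of 0.22 and 0.42 at 12 h.

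Other genes lower at 6 h encode factors of chromatin and transcription, namely ARID1A (LFC -0.47, adjusted p = 0.0355), BPTF (LFC -0.45, adjusted p = 0.0253), BRD2 (LFC -0.35, adjusted p = 0.0478), TWIST1 (LFC -0.71, adjusted p = 0.0155), and the linker histone H1-2 (LFC -0.73, adjusted p = 0.0294), and the nucleolar proteins NOP56 (LFC -0.43, adjusted p = 0.00312) and GNL3 (LFC -0.38, adjusted p = 0.017). No list of such genes was examined. With 1 library left out in turn, NOP56 kept its call in 6 of 6 fits, BPTF, TWIST1, and GNL3 in 2, ARID1A and H1-2 in 1, and BRD2 in 0. Genes higher at 6 h that were on no list included EIF5, the start codon factor of translation (LFC 0.39, adjusted p = 0.000364), SH3BP5 (LFC 0.62, adjusted p = 0.00756), CLU, the secreted chaperone clusterin (LFC 0.63, adjusted p = 0.0306), and TUBA1A (LFC 0.39, adjusted p = 0.0246). Of these, EIF5 kept its call in 6, SH3BP5 in 4, TUBA1A in 2, and CLU in 1 of the 6 fits.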
